A study of Mus musculus with 99 samples.

Results

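The ageing of the spinal cord without exercise was followed by comparing 10 whole spinal cord libraries from sedentary mice of 18 months with 10 from sedentary mice of 10 months. The members were taken by their titles, which name the tissue, the activity and the age, and make up 20 of the 97 libraries in the count table (99 samples are labelled). All animals were male C57BL/6 wild type mice, perfused with phosphate-buffered saline before the cord was frozen, and the labels name no allele or drug. A further 13 cord libraries came from exercised mice of 18 months; they shared the fit and are given beside the results, and the labels do not say what the exercise was. RNA was polyadenylated RNA of the whole cord, so every value is an average over all of its cells, and fewer cells of a type and less RNA per cell cannot be told apart. The libraries of one age are called replicates here, but the labels do not state that each is a separate animal, so the p-values measure the spread between these samples.

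The cord is a mixed tissue: neurons and their axons, the oligodendrocytes that wrap those axons in myelin, astrocytes, vessels, the ependyma of the central canal, and microglia, the resident macrophages that clear myelin debris and dying cells. In ageing and injured white matter, microglia are known to switch on lysosomal, lipid-handling and antigen-presenting genes, a state called disease-associated, and astrocytes are known to raise intermediate filament and complement genes. Class I major histocompatibility complex (MHC) molecules, which interferon can induce, show peptides to CD8 T cells, and a few such T cells enter the old nervous system.

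The labelled tissue was checked with 10 genes of neurons and glia, summed as TPM (transcripts-per-million). Their sum was 12374, 14086 and 14900.0 TPM (lowest, median and highest) in the 18-month cords and 13149, 14140.0 and 14874 TPM in the 10-month cords, against 9.53, 16.6 and 30.2 TPM in the 64 muscle libraries of the study. Depth was similar between ages, with 29334119 to 49091268 counts in the 18-month libraries and 31843287 to 41819941 in the 10-month libraries. A pair of 18-month libraries stood apart from their group. Library 6.1 held 11597 CPM (counts-per-million) over 10 red cell genes, against 289.6 to 1115 CPM in the other 9 libraries of 18 months and 360.5 to 1204 CPM at 10 months. Library 5.2 held 15591 CPM over 13 mitochondrially encoded genes, against 40738 to 45556 CPM in the other 9 libraries of 18 months and 41863 to 49832 CPM at 10 months. One 10-month library, 3.1, was high in microglial genes, as described with them. Each count below was therefore also made without 5.2 and 6.1 together and without 3.1.

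Of 35870 genes in the table, 18956 passed the filter on low counts and were tested. At an adjusted p under 0.05 in edgeR's quasi-likelihood test, 1015 genes (5.35%) changed with age: 535 (2.82%) were higher and 480 (2.53%) lower at 18 months. Counts of called members in each gene list below are to be read against these shares. The rises were the larger changes. The median log2 fold change was 0.35 among the rises (interquartile range 0.23 to 0.53) and -0.18 among the falls, and 0.01 over all genes tested. A log2 fold change of at least 0.5 in size was reached by 150 rises but 13 falls, and of at least 1 by 36 rises but 2 falls. The rises were mostly in low-level genes, with a median of 7.17 CPM at 10 months, whereas the median among the falls was 44.8 CPM. Summed over genes, the rises took 42334 CPM at 18 months, against 35620 CPM at 10 months, and the falls 42560 CPM at 18 months, against 47761 CPM at 10 months.

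Without libraries 5.2 and 6.1, 291 genes (1.52%) were called higher and 163 (0.853%) lower out of 19106 tested. Of the 535 rises, 274 (51.2%) were called again, as were 119 (24.8%) of the 480 falls, and all 1015 kept their sign. Among the changes of at least 0.5, 118 of 150 rises and 7 of 13 falls were called again. Without library 3.1, 763 of 19032 genes (4.01%) were called higher. The numbers also depended on the 13 exercised cord libraries that shared the fit. With the 20 sedentary libraries alone, 205 genes were called higher and 47 lower. In all 27 alternatives tried, 162 of the rises and 38 of the falls were called in the same direction.

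In 24 tested genes (0.127%) the values of the ages did not overlap: 16 lay higher in every 18-month library and 8 lower. The 16 were Cst7, Ccl3, Slc15a3, Lgals3, Gpnmb, Lag3, Itgax, Mmp12, Tnfaip2, Pdcd1, Gfap, Arl11, Pou3f1, Pcdhb3, Ripor3 and H2-Q4, and each was called in all 27 alternatives. Several of them are known from activated microglia and macrophages. Mmp12, the elastase secreted by macrophages, was at 0.409, 0.983 and 1.77 CPM (lowest, median and highest) in the 18-month libraries, against 0.025, 0.0832 and 0.387 CPM in the 10-month libraries. That was a log2 change of 3.1 ± 0.36 (SE; adjusted p = 6.84e-07), although each library held few reads of it. Ccl3, a chemokine that draws in leukocytes, was at 0.731, 0.9 and 1.18 CPM in the 18-month libraries, against 0.158, 0.253 and 0.35 CPM in the 10-month libraries. The log2 fold change of Ccl3 was 1.91 ± 0.16 (SE; adjusted p = 8.17e-10), and that of Ccl4, its neighbour and close relative, was 1.51 ± 0.18 (SE; adjusted p = 7.85e-07); Ccl4 was above every 10-month library in 9 of 10 libraries. The annotated spans of Ccl3 (chr11:83647843-83649378) and Ccl4 (chr11:83648624-83664683, GRCm38.p6) overlap, but in GENCODE's annotation the exons of each share 0 bases with another gene.

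Pdcd1, the gene of PD-1, an inhibitory receptor best known on T cells, was at 0.57, 0.836 and 1.17 CPM in the 18-month libraries, against 0.0804, 0.319 and 0.473 CPM in the 10-month libraries. Its log2 fold change was 1.67 ± 0.22 (SE; adjusted p = 6.40e-06). Lag3, a CD4-related inhibitory receptor, was at 10.9, 12.8 and 15.5 CPM in the 18-month libraries, against 7.21, 8.63 and 9.31 CPM in the 10-month libraries. No library of one age reached the other, and the log2 fold change was 0.65 ± 0.07 (SE; adjusted p = 2.23e-07). Other inhibitory receptors, chosen after their values were seen, overlapped between ages: Cd22, which recognises sialic acids and restrains phagocytosis by microglia, rose by 1.03 and Lilrb4a by 1.09 on the log2 scale; 35.3% of the exon length of Lilrb4a is shared with a predicted gene. Among the other non-overlapping genes, Arl11, a small GTPase of macrophages, was at 1.51 ± 0.179 CPM at 18 months, against 0.845 ± 0.255 CPM at 10 months (SD, n = 10 each), and Tnfaip2, a gene induced by tumour necrosis factor, at 10.06 ± 0.768 CPM at 18 months, against 7.38 ± 0.526 CPM at 10 months.

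**Figure D1:**
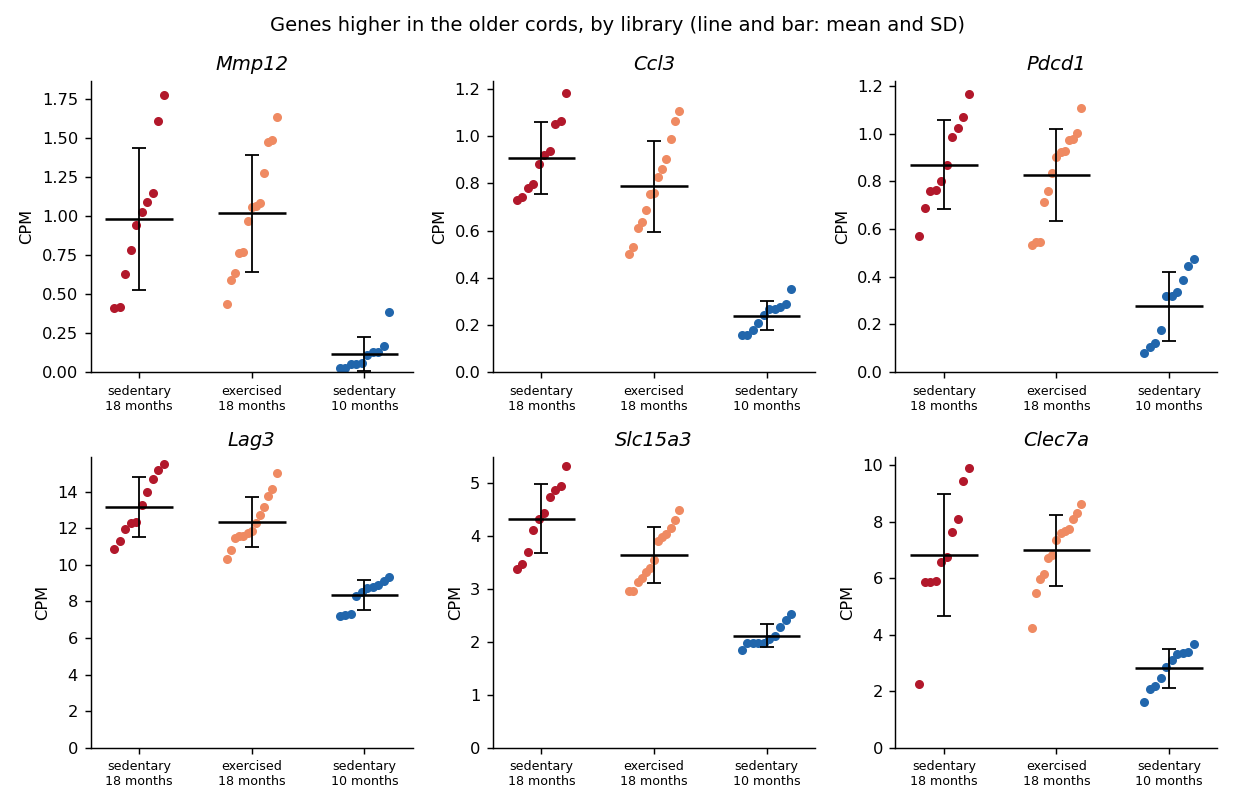
CPM of 6 genes that rose with age (y axis, linear, from 0) in each sedentary 18-month, exercised 18-month and sedentary 10-month cord library; points are libraries, line and bar are mean and SD. For Mmp12, Ccl3, Pdcd1, Lag3 and Slc15a3 all 10 sedentary 18-month points lie above all 10 sedentary 10-month points, and for Clec7a 9 of 10 do.

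The disease-associated microglial list held the most rises of the cell type lists, with 21 of 30 members higher and 0 lower, against 2.82% higher over all genes tested. Its median log2 fold change was 0.45, and 20 members were called higher without 5.2 and 6.1, 21 without 3.1 and 20 to 22 with any 1 library left out. The summed level was 5527, 5991 and 6892 CPM at 18 months, against 4715, 5018 and 5506 CPM at 10 months. By role, the sensing receptors rose with their adaptor. Trem2, the lipid receptor of the switch, was at 17.4, 22.1 and 27.6 CPM in the 18-month libraries, against 10.6, 12.9 and 18.1 CPM in the 10-month libraries. Trem2 had a log2 change of 0.79 ± 0.08 (SE; adjusted p = 1.79e-07), and its signalling adaptor Tyrobp of 0.68 ± 0.09 (SE; adjusted p = 8.04e-06). Clec7a, a glucan receptor, was at 2.25, 6.66 and 9.88 CPM in the 18-month libraries, against 1.63, 2.99 and 3.68 CPM in the 10-month libraries. All but the lowest 18-month library exceeded every 10-month library.

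Lipid carriers and enzymes of the same list also rose. Apoe, the lipid carrier apolipoprotein E, was at 1653, 1920 and 2431 CPM in the 18-month libraries, against 1341, 1459 and 1722 CPM in the 10-month libraries. The log2 fold change was 0.42 ± 0.06 (SE; adjusted p = 4.84e-05), and 9 of 10 libraries were above every 10-month library. Lpl, which frees fatty acids from lipoproteins, rose by 0.83 ± 0.11 (SE; adjusted p = 6.37e-06). In the wider list of lipid handling, 3 of 20 tested members rose, and 6 did without 3.1. On the TPM scale, which is per length, the level of Apoe was 3496 ± 309.6 TPM at 18 months, against 2669.7 ± 164 TPM at 10 months, whereas that of Cst7, an inhibitor of lysosomal proteases, was 6.92 ± 1.52 TPM, against 1.5 ± 0.672 TPM (SD, n = 10 each). Apoe had the far higher level of this pair, and Cst7 the larger log2 fold change (2.24, against 0.42 for Apoe). B2m and Cd52 rose as well, by 0.35 and 0.85 on the log2 scale.

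Of 40 tested lysosomal genes, 17 rose and 0 fell (median log2 fold change 0.12), and 12 rose without 5.2 and 6.1 and 14 to 19 with any 1 library left out. Cd68, a glycoprotein of the macrophage lysosome, was at 13.5, 17 and 19 CPM in the 18-month libraries, against 6.95, 8.06 and 15.9 CPM in the 10-month libraries. The highest 10-month value is library 3.1, and the log2 fold change was 0.89 ± 0.10 (SE; adjusted p = 7.67e-07). Atp6v0d2, a proton pump subunit of osteoclasts and macrophages, rose by 2.27 ± 0.41 (SE; adjusted p = 0.0012) at under 1 CPM in every library. Among cathepsins, the proteases of this compartment, Ctsd rose by 0.39 ± 0.05 (SE; adjusted p = 8.04e-06), Ctsz by 0.48, Ctss by 0.41, Ctsh by 0.35, Ctsl by 0.18 and Ctsb by 0.14 on the log2 scale. The hydrolases Hexa, Gusb and Naglu rose by 0.26, 0.25 and 0.23, and Grn, the progranulin gene, by 0.28. In Ctsd, 34.4%, and in Ctsl, 26.9% of exon length overlaps another annotated gene.

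The number of homeostatic microglial markers that were called depended on library 3.1. Of 18 markers, 4 rose (Cx3cr1, Aif1, and Trem2 and Tyrobp, which the disease-associated list also holds) and 0 fell, the same count as without 5.2 and 6.1; without 3.1, 10 rose. The summed level of the 18 genes was 505, 540.1 and 580.2 CPM at 18 months and 721.4 CPM in library 3.1, against 443.6 to 473.9 CPM in the other 9 libraries of 10 months. All 18-month libraries lay above those 9 and below 3.1. Cx3cr1, the fractalkine receptor, was at 45.9, 53.2 and 57.7 CPM in the 18-month libraries, against 40.1, 42.9 and 59.7 CPM in the 10-month libraries. Its log2 fold change was 0.24 ± 0.05 (SE; adjusted p = 0.00956). Tmem119 had a log2 change of 0.16 (adjusted p = 0.0847), and 0.20 (adjusted p = 0.00935) without 3.1; Csf1r, the growth factor receptor of microglia, had 0.12 (adjusted p = 0.277), and 0.22 (adjusted p = 2.13e-04) without it. P2ry12, a purine receptor of surveying microglia, was fitted the other way at -0.20 but did not pass (adjusted p = 0.0782). Its lowest 18-month values were 14.9 CPM in library 5.2 and 17.6 CPM in 6.1. The other 18-month libraries had 22.1 to 27.1 CPM of P2ry12, against 24 to 27.7 CPM at 10 months. Siglech was at 11.1 ± 1.38 CPM at 18 months, against 11.2 ± 1.92 CPM at 10 months (log2 fold change -0.01, adjusted p = 0.949).

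**Figure D2:**
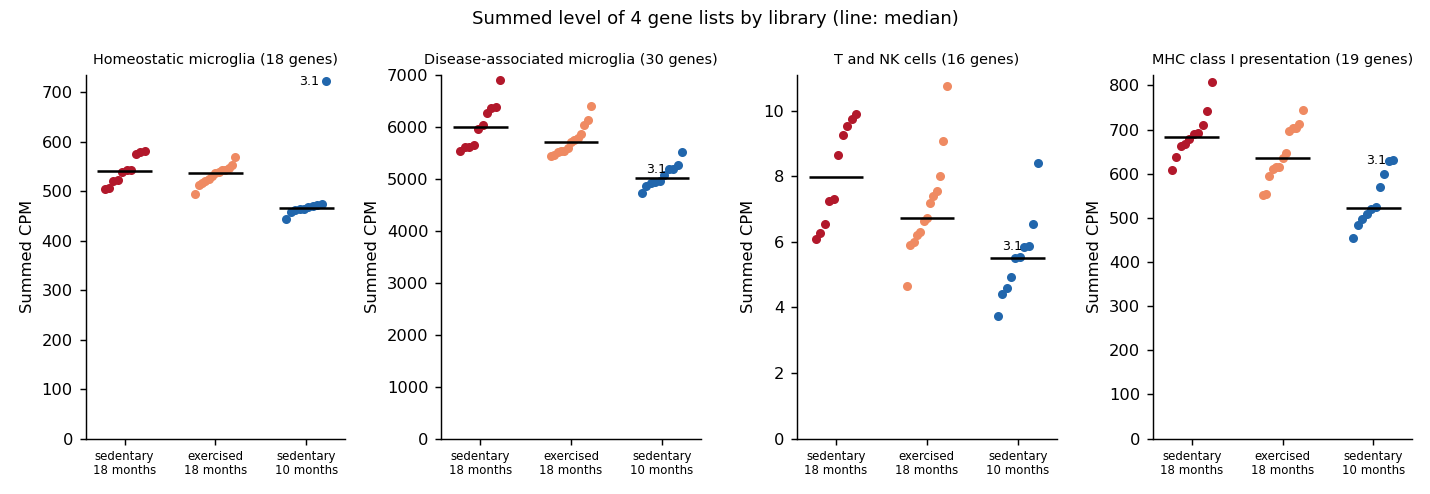
Summed CPM (y axis, from 0) of 4 gene lists in each cord library of the sedentary 18-month, exercised 18-month and sedentary 10-month groups; points are libraries and lines medians. Library 3.1 of 10 months is marked and has 721.4 CPM of homeostatic microglial genes, above every other library.

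A list of Fc receptors, which bind antibody, with adaptors and other immune receptors was also called in a number that depended on library 3.1. Of its 22 genes, 7 rose (Fcer1g, Fcgr1, Tyrobp, Lilrb4a, Cd22, Clec7a and Ptpn6), 6 did without 5.2 and 6.1, and 17 did without 3.1. Among the 7, Lilrb4a, Cd22 and Clec7a are not Fc receptors, and Ptpn6 is a phosphatase. Fcer1g, the shared signalling chain, was at 15.9 ± 2.73 CPM at 18 months, against 10.36 ± 3.28 CPM at 10 months (SD, n = 10 each; log2 change 0.62 ± 0.11 SE, adjusted p = 0.0012). Of 23 complement genes, 8 rose, also 8 without 5.2 and 6.1, 11 without 3.1, and 7 to 11 with any 1 library left out. The C1q chains rose together: the log2 fold change was 0.71 for C1qa, 0.56 for C1qb and 0.61 for C1qc. C1qc was at 53.5, 65.7 and 78 CPM in the 18-month libraries, against 34.1, 37.1 and 86.8 CPM in the 10-month libraries. Its ranges overlapped because 3.1 had the highest value of all 20 libraries. C3, the central component, rose by 0.53 ± 0.10 (SE; adjusted p = 0.00241) and C3ar1, its anaphylatoxin receptor, by 0.64 ± 0.13 (SE; adjusted p = 0.00283). Among 22 toll-like receptor and inflammasome genes, 4 rose, namely Tlr2 by 0.68 ± 0.08 (SE; adjusted p = 1.55e-06), Cd180 by 0.51, Pycard by 0.44 and Casp4 by 0.61, with 1 to 8 rising when any 1 library was left out and 8 without 3.1.

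Other macrophages and blood cells were checked by their own markers. Of 14 border macrophage and monocyte markers, 1 rose, and 2 without 3.1: Ms4a7 was at 1.18 ± 0.258 CPM at 18 months, against 0.452 ± 0.208 CPM at 10 months, a log2 change of 1.37 ± 0.25 (SE; adjusted p = 0.00101). Of the 14, 11 were fitted higher and 3 lower, with a median log2 fold change of 0.28, and 0.37 without 3.1. Mrc1, the mannose receptor of perivascular and meningeal macrophages, had -0.08 (adjusted p = 0.858) and Cd163, a hemoglobin scavenger receptor of the same cells, -0.16 (adjusted p = 0.602). None of 12 neutrophil and 10 red cell genes passed the test. All 12 neutrophil genes were fitted higher, with a median log2 fold change of 0.35, 0.63 without 3.1 and 0.28 without 5.2 and 6.1. All 10 red cell genes were fitted higher too, and the red cell median of 1.29 was 0.17 without 5.2 and 6.1. Their part in the rises was not tested. Of 16 iron and heme genes 4 rose: the ferritin chains Fth1 (0.27) and Ftl1 (0.43), the transferrin gene Trf (0.25) and the phagosomal metal transporter Slc11a1 (0.61 ± 0.08 SE, adjusted p = 1.15e-05). Library 6.1 had the highest value at 18 months for the first 3 of these; without 5.2 and 6.1 the adjusted p was 0.0389 for Fth1, 0.0452 for Ftl1 and 0.0088 for Trf. Ferritin has near-identical pseudogenes and 63.5% of the exon length of Trf overlaps a predicted gene, so their counts are uncertain.

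T cell transcripts were few. Of 16 markers of T and natural killer cells, 12 passed the filter and 4 of these rose: Cd8a, Cd8b1, Cxcr6 and Lck. Cd8a, a chain of the CD8 co-receptor, was at 0.273, 0.714 and 1.23 CPM in the 18-month libraries, against 0.0965, 0.173 and 0.526 CPM in the 10-month libraries. The ranges overlapped in 3 of the 18-month libraries, and the log2 fold change was 1.60 ± 0.34 (SE; adjusted p = 0.005). Cd8b1, the partner chain, had 1.2 ± 0.34 (SE; adjusted p = 0.0336) and Cxcr6, a receptor of tissue-resident T cells, 1.3 ± 0.35 (SE; adjusted p = 0.0279). Cd3e, part of the T cell receptor complex, was at 0.231 ± 0.0971 CPM at 18 months, against 0.194 ± 0.102 CPM at 10 months (log2 fold change 0.29, adjusted p = 0.604), and Cd4 had a log2 change of 0.52 (adjusted p = 0.218). The summed level of the 16 genes was 6.1, 7.97 and 9.9 CPM at 18 months, against 3.74, 5.52 and 8.41 CPM at 10 months. Without 5.2 and 6.1, Cd8b1 had an adjusted p of 0.086 and 3 members rose; 2 to 7 did with any 1 library left out. Of 9 tested B and plasma cell genes 1 rose, Mzb1, against 2.82% higher over all genes tested. In this list 0 rose without 5.2 and 6.1, 0 without 3.1, and 0 to 2 with any 1 library left out. Mzb1 has 57.2% of its exon length shared.

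Among 22 chemokine and receptor genes 8 rose, 6 without 5.2 and 6.1 and 4 to 11 with any 1 library left out. Besides Ccl3, Ccl4 and Cxcr6, these were Ccl2 (0.79), Ccl6 (0.54), Cxcl10 (1.4), Cxcl13 (1.78) and Cxcr4 (0.35), the values being log2 fold changes. Cxcl10, an interferon-induced ligand that attracts T cells through Cxcr3, was at 0.93, 1.87 and 3.44 CPM in the 18-month libraries, against 0.448, 0.701 and 1.72 CPM in the 10-month libraries. In 5 of 10 libraries it was above every 10-month library, with a log2 change of 1.4 ± 0.24 (SE; adjusted p = 6.34e-04). Cxcl13, which guides B cells, was at 0.49 ± 0.285 CPM at 18 months, against 0.142 ± 0.0979 CPM at 10 months (SD, n = 10 each; adjusted p = 0.0392, and 0.0634 without 5.2 and 6.1).

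Genes of class I antigen presentation rose together: 15 of 19 tested genes were higher and 0 lower, with 11 higher without 5.2 and 6.1, 12 to 17 with any 1 library left out, and a median log2 fold change of 0.35. H2-D1, a classical heavy chain, was at 139.9, 157 and 186 CPM in the 18-month libraries, against 100.6, 117 and 147 CPM in the 10-month libraries. The log2 fold change of H2-D1 was 0.42 ± 0.07 (SE; adjusted p = 1.41e-04) and that of H2-K1, the other classical chain, 0.47 ± 0.09 (SE; adjusted p = 0.00156). H2-Q4, a non-classical chain, was at 15.6, 17.1 and 21.4 CPM in the 18-month libraries, against 9, 12.4 and 15.4 CPM in the 10-month libraries. Its groups did not overlap, and the log2 fold change was 0.57 ± 0.10 (SE; adjusted p = 0.00111). H2-Q6, H2-Q7, H2-T24, H2-T23 and H2-M3 rose by 0.84, 0.73, 0.38, 0.32 and 0.28 on the log2 scale. These chains are near-identical copies, so how reads were split among them is uncertain. The light chain B2m (0.35), the peptide transporter subunits Tap1 (0.34) and Tap2 (0.26), the loading factor Tapbp (0.21), the immunoproteasome subunits Psmb8 (0.50) and Psmb9 (0.51) and the transactivator Nlrc5 (0.61) rose too. Without 5.2 and 6.1, Tap1 (adjusted p = 0.114), Tap2 (0.0512), Tapbp (0.0538) and H2-T23 (0.114) were not called.

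Class II presentation, used by macrophages and B cells toward CD4 T cells, showed 3 rises among 11 genes: H2-Oa (0.83), H2-Ob (0.53) and the protease Ctss (0.41). The presenting chain H2-Aa was at 12.5, 18.8 and 23.7 CPM at 18 months, against 6.63, 15.7 and 23.9 CPM at 10 months. Its ranges overlapped widely, with a log2 change of 0.38 and an adjusted p of 0.216, and its chaperone Cd74 had 0.42 (adjusted p = 0.157).

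Of 37 interferon-stimulated genes, 13 rose and 0 fell, 9 without 5.2 and 6.1 and 8 to 20 with any 1 library left out, with a median log2 fold change of 0.38. The RNA sensors Oas1a and Oas2 rose by 0.74 ± 0.16 (SE; adjusted p = 0.00725) and 0.73 ± 0.16 (SE; adjusted p = 0.00709), the immunity-related GTPases Igtp and Irgm1 by 0.35 and 0.21, and the tetherin gene Bst2 by 0.59. Library 6.1 held the outlying value of Rsad2, an antiviral enzyme, which was at 3.84, 5.62 and 40 CPM at 18 months, the highest being 6.1, against 2.4, 4.45 and 6.47 CPM at 10 months. Its adjusted p was 0.0459, and 0.246 without 5.2 and 6.1. Irf1 and Irf8, transcription factors of the pathway and of microglia, rose by 0.29 and 0.52 ± 0.09 (SE; adjusted p = 4.02e-04).

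The promoters of these genes are shown because the list was named for an inducer whose response element has a short core. In RefSeq windows from 250 bases before to 50 after the gene start (GRCm38.p6), the core of the interferon-stimulated response element, GAAANNGAAA on either strand, was found in 540 of 14383 tested genes with a window (3.75%). It was found in 29 of 406 rises (7.14%) and 11 of 370 falls (2.97%) with a window, and in 6 of the 120 rises (5%) that every alternative called. Among the interferon-stimulated genes it was in 16 of 25 tested (64%) and 6 of 9 rises (66.7%), and among class I genes in 4 of 15 tested (26.7%) and 2 of 12 rises (16.7%). Capitals mark the core or its reverse complement in the stretches of 6 of these genes, with 25 bases on each side, 5′ to 3′ on the gene's strand.
B2m: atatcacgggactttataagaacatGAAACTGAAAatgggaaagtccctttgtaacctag
H2-T23: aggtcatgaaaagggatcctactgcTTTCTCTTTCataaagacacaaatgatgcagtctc
Cxcl10: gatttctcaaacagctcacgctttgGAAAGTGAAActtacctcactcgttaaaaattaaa
Oas1a: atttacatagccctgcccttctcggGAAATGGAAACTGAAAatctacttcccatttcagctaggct
Igtp: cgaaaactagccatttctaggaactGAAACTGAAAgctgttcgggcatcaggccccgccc
Irgm1: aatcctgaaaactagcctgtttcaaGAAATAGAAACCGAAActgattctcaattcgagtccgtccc
The positions are chr2:122147523-122147582 (+ strand) for B2m, chr17:36032791-36032850 (- strand) for H2-T23, chr5:92349068-92349127 (- strand) for Cxcl10, chr5:120907505-120907570 (- strand) for Oas1a, chr11:58199497-58199556 (+ strand) for Igtp and chr11:48871410-48871475 (- strand) for Irgm1. A match is a stretch of letters and does not show that a factor binds. The core of the site of PU.1, a transcription factor of macrophages, GAGGAAGT on either strand, was in 3.5% of the windows of all tested genes, 7.88% of those of the rises and 3.78% of those of the falls. It was in 12 of the 120 rises (10%) that every alternative called and in 2 of 12 lysosomal rises (16.7%). Among the rises of the other lists it was in 0 of 16 disease-associated microglial, 0 of 12 class I and 0 of 9 interferon-stimulated genes. The E-box core known from lysosomal genes, TCACGTGA, was in 1.81% of all windows, 0.985% of those of the rises and 2.16% of those of the falls, and in 4 of 31 tested lysosomal genes (12.9%).

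Of 31 reactive astrocyte genes 14 rose and 0 fell, 12 without 5.2 and 6.1 and 9 to 16 with any 1 library left out. Gfap, the intermediate filament of astrocytes, was at 1465, 1564 and 1844 CPM in the 18-month libraries, against 1085, 1222 and 1429 CPM in the 10-month libraries. The ages did not overlap. Vim, another intermediate filament, rose by 0.49 ± 0.13 (SE; adjusted p = 0.0245) and was above every 10-month library in 6 of 10. Serpina3n, a protease inhibitor, rose by 0.28 ± 0.05 (SE; adjusted p = 0.00212), Timp1, an inhibitor of matrix proteases, by 1.23 ± 0.25 (SE; adjusted p = 0.00375), and Ptx3, a secreted pattern receptor, by 0.55. C4b, a complement component known to rise in old glia, was at 187, 227 and 265 CPM in the 18-month libraries, against 119.9, 128 and 210.2 CPM in the 10-month libraries. Of 14 astrocyte markers 0 passed, with a median of -0.06, and -0.04 without 5.2 and 6.1. Aldh1l1 had a log2 change of 0.09 (adjusted p = 0.295), Slc1a2 -0.11 (adjusted p = 0.176) and Aqp4 -0.18 (adjusted p = 0.188). The lowest 18-month values of Aqp4 were 272 CPM in library 5.2 and 336 CPM in 6.1, against 400 to 565 CPM in the other 18-month libraries. These libraries were also the lowest for Slc1a2, at 1246 and 1411 CPM. Part of the reactive list (C3, C4b, H2-D1, H2-T23, Psmb8 and Cxcl10) is shared with the complement, MHC and interferon lists. Microglia also express several of these genes.

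**Figure D3:**
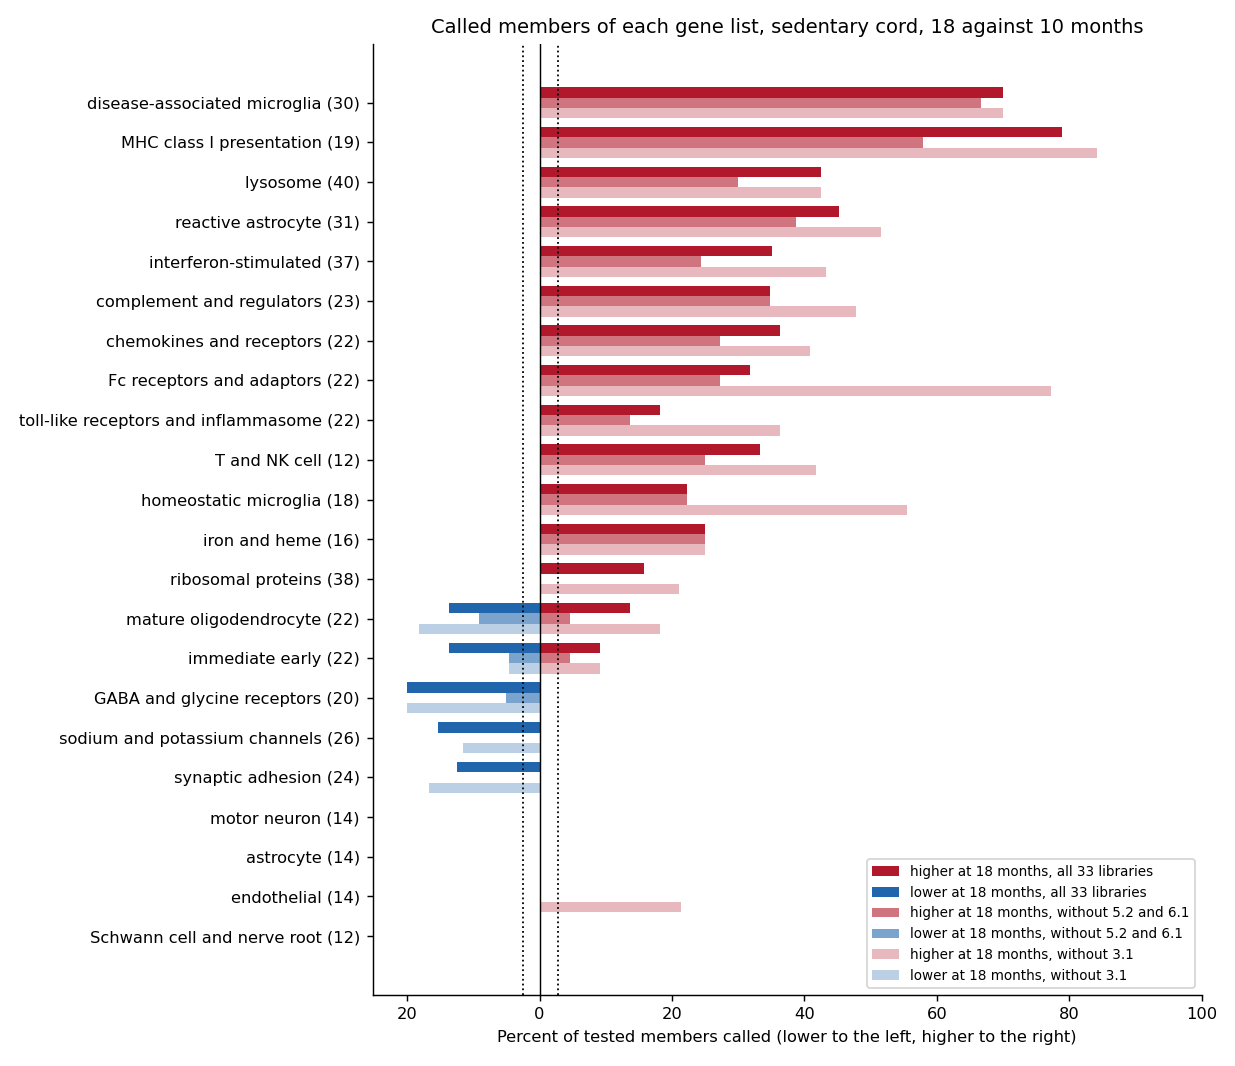
Percent of tested members called higher (to the right) and lower (to the left) at 18 months in 22 gene lists, number tested in brackets; bars are the fit with all 33 cord libraries, without 5.2 and 6.1, and without 3.1, and dotted lines mark 2.82% and 2.53%, the shares over all genes. The microglial, class I, lysosomal, interferon and reactive astrocyte lists lie far to the right, with 21 of 30 and 15 of 19 at the top, and the Fc receptor and homeostatic microglial bars lengthen without 3.1.

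Myelin and its cells gave changes in both directions. Of 22 mature oligodendrocyte genes, 3 rose (Mbp, Trf and Hapln2) and 3 fell, among them Mal and Ugt8a. Mal, a proteolipid of compact myelin, was at 429.6, 481 and 522 CPM in the 18-month libraries, against 496, 533 and 572 CPM in the 10-month libraries. It was below every 10-month library in 7 of 10, with a log2 change of -0.16 ± 0.04 (SE; adjusted p = 0.0077). Ugt8a, which makes the galactolipids of myelin, had -0.28 ± 0.07 (SE; adjusted p = 0.0145). Mog, of the outer myelin surface, was at 201 ± 19.3 CPM at 18 months, against 202 ± 13.6 CPM at 10 months (adjusted p = 0.971). Without 5.2 and 6.1, 1 rose and 2 fell.

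Of 16 genes of oligodendrocyte precursors and their first descendants, 1 fell (Gpr17) and 1 rose (Bcas1), against 2.53% lower and 2.82% higher over all genes tested. Gpr17, a receptor of cells committed to become oligodendrocytes, was at 17.8, 24.9 and 32.9 CPM in the 18-month libraries, against 25.9, 35.4 and 43.9 CPM in the 10-month libraries. Its log2 fold change was -0.48 ± 0.09 (SE; adjusted p = 0.00211), called in all 27 alternatives. Bcas1, expressed by newly formed oligodendrocytes, was at 626, 686 and 749.7 CPM at 18 months, against 562, 605 and 646 CPM at 10 months. It was above every 10-month library in 7 of 10 (log2 change 0.18 ± 0.04 SE, adjusted p = 0.00539). The precursor markers Pdgfra (0.05, adjusted p = 0.764) and Cspg4 (0.00, adjusted p = 0.994) passed no test.

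Of 20 genes of GABA and glycine receptors and their scaffold, 4 fell (Gabra2, Gabra3, Gabra5 and Gphn), against 2.53% lower over all genes tested. Fitted lower were 19 of the 20, against 9108 of all 18956 genes tested. Their median log2 fold change was -0.19, and -0.11 without 5.2 and 6.1. Gabra5, a receptor subunit found mostly outside synapses, was at 52, 57.2 and 61.4 CPM in the 18-month libraries, against 59.7, 63.1 and 65.2 CPM in the 10-month libraries. It lay below every 10-month library in 9 of 10, with a log2 change of -0.15 ± 0.03 (SE; adjusted p = 0.00828), and was called in all 27 alternatives. Gabra2 had -0.33 ± 0.08 (SE; adjusted p = 0.0169), Gabra3 -0.17 ± 0.05 (SE; adjusted p = 0.0282) and Gphn, the gene of the scaffold gephyrin, -0.11 ± 0.03 (SE; adjusted p = 0.0267). Without 5.2 and 6.1, 1 of the 4 was called, with adjusted p of 0.0613 for Gabra2, 0.0902 for Gabra3 and 0.109 for Gphn. With each library's trend on gene length as a covariate 2 were called, and with any 1 library left out 1 to 9. Of 14 inhibitory interneuron genes 2 fell (Gad1 and Rorb), and 0 without 5.2 and 6.1; 7 were fitted higher and 7 lower, with a median of 0.00. Gad1, which makes GABA, had a log2 change of -0.14 ± 0.03 (SE; adjusted p = 0.0161), with an adjusted p of 0.0685 without 5.2 and 6.1. Slc32a1, which loads GABA into vesicles, had 0.04 (adjusted p = 0.637). The excitatory interneuron list also had 1 fall among 14 genes (Slc17a6), and 0 without 5.2 and 6.1. Its members were fitted higher in 7 cases and lower in 7, with a median of -0.04, and -0.06 without 5.2 and 6.1. Slc17a6 had a log2 change of -0.19 ± 0.06 (SE, adjusted p = 0.0455), with an adjusted p of 0.171 without 5.2 and 6.1.

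Among 26 sodium and potassium channel genes 4 fell (Scn1a, Kcnc2, Kcnj10 and Kcnj16), among 24 synaptic adhesion genes 3 (Lrrtm2, Slitrk1 and Slitrk2) and among 22 glutamate receptor genes 2 (Gria4 and Grm3), against 2.53% lower over all genes tested. None of these 9 was called without 5.2 and 6.1, where the adjusted p ran from 0.0616 for Slitrk1 to 0.183 for Kcnc2. In the order of these lists, 22, 22 and 19 members were fitted lower, with medians of -0.13, -0.15 and -0.09. Over all 18956 genes tested, 9108 were fitted lower, and the longest class of genes by length had a median of -0.07. Without 5.2 and 6.1 the medians were -0.09, -0.08 and -0.07. Among 19 calcium channel genes 1 fell, the subunit gene Cacnb2, and 2 did without 5.2 and 6.1. Of the 19, 17 were fitted lower, with a median of -0.09, and -0.07 without 5.2 and 6.1. Cacnb2 had a log2 change of -0.19 ± 0.04 (SE; adjusted p = 0.00224) and was called in all alternatives. Of 14 motor neuron genes 0 passed, with 3 fitted higher and 11 lower. Their median log2 fold change was -0.08, and -0.09 without 5.2 and 6.1. Slc5a7, which takes up choline for acetylcholine synthesis, was at 62.3 ± 15.9 CPM at 18 months, against 77.3 ± 10.5 CPM at 10 months (log2 fold change -0.31, adjusted p = 0.0965). The lowest 18-month values of Slc5a7 were 28 CPM in library 5.2 and 46.6 CPM in 6.1. Among 14 pan-neuronal genes 1 fell (Elavl4), 1 did without 5.2 and 6.1, and 0 to 2 did with any 1 library left out. Fitted higher were 8 and lower 6, with a median of 0.01. Elavl4 was at 42.3 to 104 CPM at 18 months, the lowest being library 5.2, against 102 to 121 CPM at 10 months. The pan-neuronal Rbfox3 had -0.02 (adjusted p = 0.816), with its highest 18-month value, 221 CPM, in library 5.2. Rbfox1, a splicing regulator of neurons, fell, with -0.18 ± 0.04 (SE; adjusted p = 0.00707). Of 22 synaptic vesicle and 20 neuropeptide genes 0 passed.

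Other falls were called in every alternative. Cdh11, a cadherin of mesenchymal and neural cells, was at 36, 46 and 50.9 CPM in the 18-month libraries, against 49.6, 56.2 and 60 CPM in the 10-month libraries. In 8 of 10 libraries it was below every 10-month library (log2 change -0.31 ± 0.05 SE, adjusted p = 3.32e-04). Chn2, a GTPase-activating protein for Rac, was at 26.9, 27.8 and 31.2 CPM in the 18-month libraries, against 28.9, 33.1 and 37.8 CPM in the 10-month libraries. Its log2 fold change was -0.24 ± 0.04 (SE; adjusted p = 5.44e-04). Top1, DNA topoisomerase I, was at 45.5, 64.8 and 72 CPM in the 18-month libraries, against 69.6, 76.5 and 83.1 CPM in the 10-month libraries. The lowest value is library 5.2, yet the log2 fold change of -0.27 ± 0.05 (SE; adjusted p = 0.00193) was called without it. Pcdh10, a protocadherin, Lrrn3, a leucine-rich repeat protein of neurons, and Upp2, a uridine phosphorylase, had log2 fold changes of -0.25, -0.21 and -0.23. Sox11 and Pax3, developmental transcription factors, had -0.25 and -0.42. All of these were called in the 27 alternatives.

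**Figure D4:**
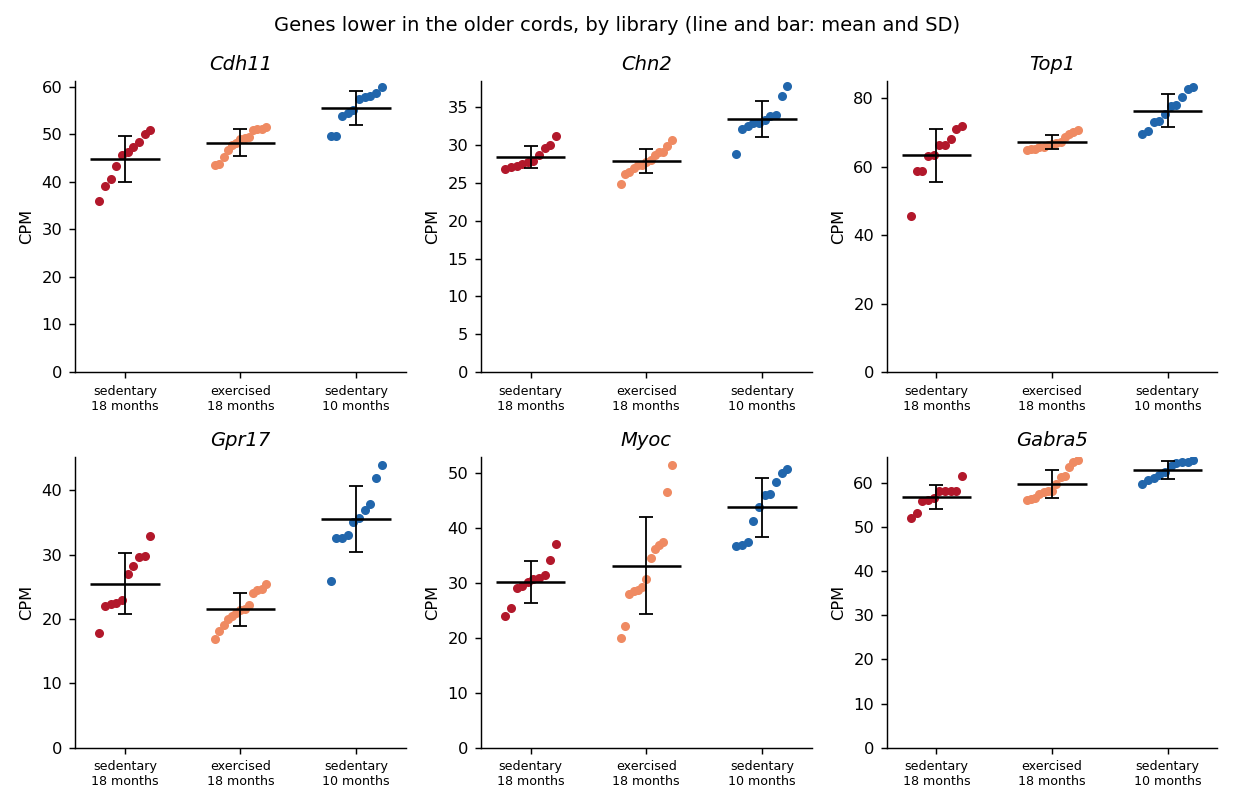
CPM of 6 genes that fell with age (y axis, linear, from 0) in each sedentary 18-month, exercised 18-month and sedentary 10-month cord library; points are libraries, line and bar are mean and SD. The sedentary 18-month points lie lower but meet the lowest 10-month points, with 9 of 10 below all of them for Gabra5 and Myoc and 5 of 10 for Gpr17.

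Of the 8 genes lower in every 18-month library, 6 were called: Myocos, Cnot2, Rwdd4a, Ano4, Rnf139 and Serinc1. Cnot2, a subunit of the complex that shortens poly(A) tails, was at 44.4, 50.3 and 52.2 CPM in the 18-month libraries, against 53, 54.7 and 58.9 CPM in the 10-month libraries. The gap between ages was small, with a log2 change of -0.14 ± 0.03 (SE; adjusted p = 0.00403). Aida and Cep83 also did not overlap but had an adjusted p of 0.079 and 0.079. Myoc, the myocilin gene, was at 23.9, 30.4 and 37.1 CPM in the 18-month libraries, against 36.7, 44.8 and 50.7 CPM in the 10-month libraries. Its log2 fold change was -0.53 ± 0.12 (SE; adjusted p = 0.00736), and the gene that overlaps it on the opposite strand, Myocos, had -1.24 ± 0.22 (SE; adjusted p = 0.00108) at under 0.5 CPM. The exons of both share 93 bases, and reads there cannot be told apart without the strand.

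Outside the immune and neural lists, few sets moved. The POU transcription factor Pou3f1 was higher in every 18-month library, at 12.4 ± 1.41 CPM at 18 months, against 8.78 ± 1.12 CPM at 10 months (SD, n = 10 each; log2 change 0.50 ± 0.07 SE, adjusted p = 4.85e-05). Pcdhb3, a clustered protocadherin of neurons, rose by 0.35 ± 0.06 (SE; adjusted p = 1.53e-04); genes of this cluster are near-identical and may share reads. Postn, a matrix protein, rose by 0.97 ± 0.18 (SE; adjusted p = 0.00178), but 0 of 27 collagen and matrix genes passed. Of 21 senescence and p53 target genes 5 rose and 1 fell, against 2.82% higher and 2.53% lower over all genes tested. Without 5.2 and 6.1, 3 rose and 0 fell, against 1.52% and 0.853% over all genes. Cdkn2a, which encodes inhibitors of the cell cycle, was at 0.538 ± 0.138 CPM at 18 months, against 0.211 ± 0.123 CPM at 10 months (log2 change 1.33 ± 0.30 SE, adjusted p = 0.0084). Plau, the urokinase gene, rose by 0.57 ± 0.09 (SE; adjusted p = 9.74e-05), whereas Cdkn1a had 0.08 (adjusted p = 0.593). Of 14 ependymal genes 1 rose, Cfap126 (0.33), against 2.82% higher over all genes tested. Spag6, a protein of motile cilia outside that list, rose by 0.73 ± 0.11 (SE; adjusted p = 1.24e-04).

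Of 22 immediate early genes, which neurons switch on with activity, 2 rose and 3 fell, 1 rose and 1 fell without 5.2 and 6.1, and with any 1 library left out 1 to 2 rose and 0 to 4 fell. Egr1 was at 26.5, 32.1 and 36 CPM at 18 months, against 30, 39.4 and 54.7 CPM at 10 months (log2 change -0.32 ± 0.08 SE, adjusted p = 0.0246), and Jund had 0.37 ± 0.08 (SE; adjusted p = 0.00872). Of 14 endothelial genes 0 passed, and 3 rose without 3.1; Cldn5, a tight junction protein of vessels, had 0.09 (adjusted p = 0.581). None of 12 Schwann cell and nerve root, 11 mural and 14 meningeal genes passed. Of 53 nuclear genes of oxidative phosphorylation 0 passed, although 48 were fitted higher (median 0.14, and 0.06 without 5.2 and 6.1). All 13 mitochondrially encoded genes were fitted lower, and 1 was called; their median was -0.25, and -0.11 without 5.2 and 6.1. Of 38 ribosomal protein genes 6 rose, 0 did without 5.2 and 6.1 or with the length covariate, and 0 to 26 did with any 1 library left out.

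The calls also moved with gene length as deposited. The median length was 2302 bases among the rises and 4566.5 bases among the falls, against 3339 bases over all genes tested. When the tested genes were split by length into 5 classes of near-equal size, the shortest class (up to 1737 bases) held 183 rises and 13 falls, and the longest (5988 bases and more) 22 rises and 131 falls. The median log2 fold change was 0.11, 0.06, 0.01, -0.04 and -0.07 from the shortest to the longest class. Without 5.2 and 6.1 the shortest class held 79 rises and 5 falls, and the longest 19 rises and 47 falls, with medians of 0.07 and -0.03. With each library's slope on length as a covariate, the shortest class held 85 rises and 17 falls and the longest 210 rises and 30 falls. With the covariate, 866 genes were called, 68.8% of them higher, against 52.7% of the 1015 calls without it; 278 of the rises and 163 of the falls were shared. What sets the trend was not tested.

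**Figure D5:**
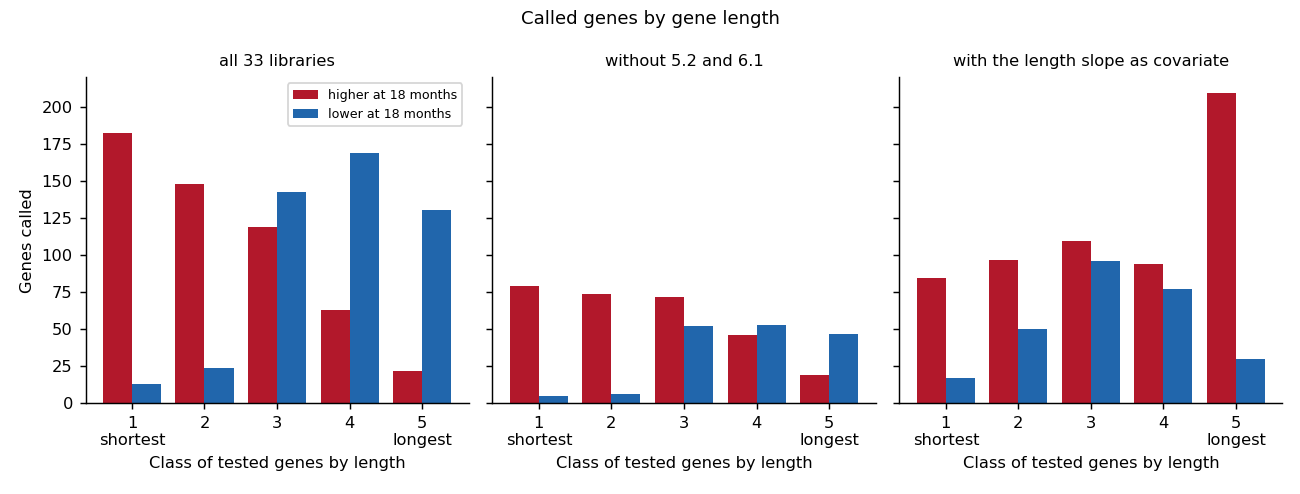
Number of genes called higher and lower at 18 months (y axis) in each of 5 classes of tested genes by length (x axis), in the fit with all 33 cord libraries, without 5.2 and 6.1, and with each library's slope on length as a covariate. Rises outnumber falls 183 to 13 in the shortest class and falls outnumber rises 131 to 22 in the longest, and with the covariate the longest class has 210 rises and 30 falls.

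In the 13 exercised cords of 18 months, set against the same 10-month libraries, the main genes had these levels (mean ± SD). Mmp12 was at 1.02 ± 0.374 CPM in exercised cords, Pdcd1 at 0.827 ± 0.192 CPM, Lag3 at 12.3 ± 1.36 CPM, Cd8a at 0.508 ± 0.288 CPM, Trem2 at 20.1 ± 1.85 CPM, Apoe at 1787 ± 168 CPM and H2-D1 at 143 ± 13.8 CPM. Cdh11 was at 48.2 ± 2.76 CPM, Top1 at 67.1 ± 1.98 CPM, Gabra5 at 59.7 ± 3.23 CPM and Gpr17 at 21.5 ± 2.63 CPM. For Gpr17 all 13 exercised libraries lay below every 10-month library, as did 5 of the 10 sedentary libraries of 18 months. The log2 fold change of Gpr17 was -0.73 ± 0.09 (SE; adjusted p = 1.59e-06) in exercised and -0.48 ± 0.09 (SE; adjusted p = 0.00211) in sedentary cords, both against the same 10-month libraries, and the difference between them was not tested.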

How the data were processed

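Per the labels' protocols, whole cords were frozen after perfusion, and polyadenylated RNA was made into TruSeq v2 libraries. The authors deposited whole-number counts per gene, TPM and gene lengths in bases; STAR 2.5.2b and the build GRCm38.p5 are named in the submitters' processing notes. The counting program was not given in the sources used here, nor was its strand setting. Depth and precision are given in the report; intervals rest on the spread between libraries.

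All 33 cord libraries were fitted together on the counts as deposited (R 4.3.3, edgeR 4.0.16, TMM factors, quasi-likelihood test, filterByExpr with a minimum count of 10 and total of 15), contrasting sedentary 18 months minus sedentary 10 months, with Benjamini-Hochberg adjustment over all 18956 genes tested. At an unadjusted p under 0.05, 4987 genes passed. CPM use TMM-scaled totals. Alternatives used DESeq2 1.42.0, limma 3.58.1 (voom with quality weights), RLE factors, no filter, fewer libraries and a length covariate. No 2 libraries of one group agreed within sampling noise (lowest chi-square per gene 3.23). Columns were matched through the sample descriptions; 2 labelled muscle samples had no column and were not analysed here.

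The 54 gene lists and the libraries set apart were chosen with earlier results of these data known. Named genes were the 20 largest changes each way (mean log2 CPM of at least 1), the 10 largest differences in CPM and the 10 smallest p each way, leaving out predicted genes and clone names, up to 4 called members of each list and the first 2 of each cell type list; the other genes named (non-overlapping genes, further list members) were chosen after their values were seen. Results of a few genes are not reported here. Coordinates are RefSeq's on GRCm38.p6, by gene ID. Exon sharing was taken from GENCODE's annotation of GRCm38. There, exons shared with another gene made up 28.1% of Slc15a3, 26.5% of Ftl1, 52.6% of Jund, 24.9% of Tapbp and 24.9% of Slc32a1. They made up 19.1% of H2-Q4, 22.8% of H2-Oa, 22.3% of Rnf139 and 15.1% of Csf1r. The counts of these genes are uncertain.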

Additional observations from a re-analysis of the deposited data

Results flagged for a closer look

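A library was picked out when the gap from the highest or lowest value to its neighbour, divided by the range of its group, was above Dixon's critical value for its size; chance alone picks out about 1 in 20 groups. Among 336 groups (each gene named in the report and 5 summed lists, at each age) 62 passed, and 35 of these were the 10-month library 3.1, 14 the 18-month library 5.2 and 5 the 18-month library 6.1. Ratios are in brackets below.

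Library 5.2 was lowest at 18 months for Aida (0.882), Cep83 (0.758), Clec7a (0.471), Cnot2 (0.581), Gabra3 (0.472), Lilrb4a (0.481), Lrrn3 (0.527), Rwdd4a (0.764), Serinc1 (0.735), Top1 (0.496) and Ugt8a (0.52). It was also lowest for the summed mitochondrially encoded genes (0.839) and highest for Rbfox3 (0.712) and Slc32a1 (0.51). Library 6.1 was highest at 18 months for Ftl1 (0.743), Rsad2 (0.814), Tapbp (0.495) and Tyrobp (0.532), and for the summed red cell genes (0.927). Library SC_10.4 was highest at 18 months for H2-T24 (0.606).

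Library 3.1 was highest at 10 months for Aif1 (0.688), C1qa (0.657), C1qb (0.745), C1qc (0.777), C3 (0.534), C3ar1 (0.759), C4b (0.668), Ccl6 (0.581), Cd163 (0.55), Cd68 (0.704), Csf1r (0.899), Ctsh (0.532), Ctss (0.807), Cx3cr1 (0.678), Fcer1g (0.692), Fcgr1 (0.704), Fth1 (0.531), Gfap (0.525), Grn (0.467), Hexa (0.602), Irf8 (0.651), Itgax (0.526), Lilrb4a (0.722), Ptpn6 (0.649), Pycard (0.81), Serpina3n (0.512), Siglech (0.669), Slc11a1 (0.548), Tlr2 (0.564), Tmem119 (0.619), Trem2 (0.483) and Tyrobp (0.497), and for the summed homeostatic microglial genes (0.891). It was lowest for Pax3 (0.49) and Ugt8a (0.508). Library 2.1 was highest at 10 months for Cfap126 (0.586), Cxcl10 (0.624), Jund (0.673) and Mmp12 (0.603) and lowest for Kcnj16 (0.5001). Library 2.2 was highest for Ccl4 (0.485) and library 1.2 for Cep83 (0.507).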

How the results depend on the processing

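The number of calls moved with the settings while their direction did not: no named gene that was called changed sign in any of the 27 alternatives that gave it a value, and none of the 1015 calls was made in the opposite direction. Against 535 higher and 480 lower, RLE factors gave 535 and 453, DESeq2 757 and 821, limma with quality weights 997 and 1263, no filter on low counts 333 and 207, the length covariate 866 in all (270 lower), the 20 sedentary libraries alone 205 and 47, and leaving out 5.2 and 6.1 gave 291 and 163. Leaving out each library in turn gave 285 to 1004 higher and 107 to 921 lower. Rises moved by over 1.5 times without 6.1 (300), 6.4 (290), 7.4 (937), SC_10.4 (1004), 1.1 (297), 1.2 (302), 1.4 (351), 2.1 (890), 2.2 (302), 2.3 (285) and 3.3 (302). Falls did so without 6.1 (107), 6.2 (280), 6.4 (132), 7.4 (921), SC_10.4 (888), 1.1 (171), 1.2 (172), 1.4 (214), 2.1 (808), 2.2 (183), 2.3 (162) and 3.3 (186). Of 144 called genes named by the rule, 68 missed the threshold with the 20 sedentary libraries alone, 53 without 5.2 and 6.1, 49 with the length covariate and 1 with DESeq2; these leave out 2 genes with no value from the sedentary libraries alone and 7 with no adjusted p from DESeq2. Leaving out single libraries moved the number of members that rose by over 1.5 times for reactive astrocytes (6.4, 1.1, 1.2, 2.3), T and natural killer cells (6.1, 8.2, 2.1, 2.2), interferon-stimulated genes (1.1, 1.3, 2.1, 2.3), chemokines (6.1, 6.4, 1.1, 1.2, 1.4, 2.2, 2.3, 3.3), toll-like receptors (6.2, 6.4, 1.1, 1.4, 2.2, 2.3, 3.1, 3.3), and homeostatic microglia and Fc receptors (3.1 alone), in the ranges given with each list, and in none of the disease-associated microglial, class I, complement, lysosomal and iron lists. The falls of GABA and glycine receptors moved so without 5.2, 6.1, 6.4, 7.4, 1.2, 2.1, 2.2, 2.3 or 3.3. The cause of these moves was not tested, except that fewer libraries entered the leave-out fits. No paired analysis was possible because the ages share no number in the sample titles. The titles' numbers and the ages cannot be told apart as batches.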

Other observations

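Library 3.1 was the highest 10-month library beyond the microglial genes. Its summed level of 14 endothelial genes was 1154 CPM, against 800.9 to 958 CPM in the 18-month libraries, and its summed level of 15 glucocorticoid-responsive genes was 1510 CPM, against 800.1 to 1147 CPM in the 18-month libraries. For the 22 genes of the list of Fc receptors and other immune receptors it had 247.3 CPM, against 165.1 to 214.8 CPM in the 18-month libraries. For 14 border macrophage and monocyte genes it had 86.3 CPM, against 41 to 65.1 CPM. For 14 pan-neuronal genes it was the lowest 10-month library, at 12566 CPM, but close to library 3.3 of 10 months at 12643 CPM. The 18-month libraries had 12111 to 14396 CPM.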
